A study of Mus musculus with 102 samples.

Results

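The genes described here are Cyp4f18 and 9 whose products release arachidonic acid or help turn it into leukotrienes and prostaglandins. The 9 are Pla2g4a, Alox5, Alox5ap, Lta4h, Ltc4s, Ptgs1, Ptgs2, Hpgds and Ptges. Levels were measured by RNA sequencing in microglia of the mouse lumbar spinal cord. All 10 were picked by symbol from a normalized table of 18856 genes and matched by gene identifier to a raw count table of 53715 genes, and all 10 passed the filter on low counts that left 20461 genes to test. The list was drawn up with results of these data in view, and the rule that names it gives no value, comparison or threshold. Levels and fold changes of the 10 genes are therefore descriptions; the adjusted p-values printed with them come from the fit of all genes and are not independent evidence.

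Microglia were sorted by flow cytometry from WT mice and from ABC-imKO mice, whose genotype is Abca1fl/fl Abcg1fl/fl Cx3cr1-CreERT2. The Cx3cr1-driven, inducible Cre recombinase removes the cholesterol exporters Abca1 and Abcg1 in cells that express Cx3cr1, which besides microglia include other macrophages and some monocytes. In each genotype there were 3 groups: naive mice with no treatment, mice given cisplatin (a platinum chemotherapy drug that causes painful neuropathy) by intraperitoneal injection on days 1 and 3 and then intrathecal saline on day 7, and mice given the same cisplatin and then intrathecal AIBP on day 7. AIBP is the apolipoprotein A-I binding protein, a secreted protein that speeds the removal of cholesterol from cells. Each group had 3 samples except WT cisplatin AIBP, which had 2, for 17 samples in all. Naive mice had neither drug nor injection, so cisplatin and the intrathecal injection cannot be told apart in a comparison with them. The labels give neither sex, age nor how Cre was induced, and they do not tell single mice from pooled ones behind a sample number. The p-values then measure only the spread between these samples, which may be technical.

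As background, cytosolic phospholipase A2 (Pla2g4a) frees arachidonic acid from membranes. 5-Lipoxygenase (Alox5), helped by its membrane partner FLAP (Alox5ap), makes the unstable leukotriene A4, which Lta4h converts to leukotriene B4, a strong attractant of leukocytes, and which Ltc4s joins to glutathione to give the cysteinyl leukotrienes. Cyp4f18 is a cytochrome P450 that inactivates leukotriene B4 by hydroxylation in mouse myeloid cells. The cyclooxygenases Ptgs1 (constitutive in many cells) and Ptgs2 (induced by inflammatory signals) make prostaglandin H2, from which Hpgds makes prostaglandin D2 and Ptges makes prostaglandin E2. In spinal cord, prostaglandin E2 and leukotrienes are known as mediators that sensitise pain pathways.

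Below, a gene is said to pass, to rise or to fall where the adjusted p of edgeR's quasi-likelihood test was under 0.05. In these microglia Cyp4f18 was the member with the largest called change from naive. It rose after cisplatin and saline 4.81-fold in WT and 9.69-fold in ABC-imKO, and it was higher than naive after cisplatin and AIBP as well. Alox5 rose 3.62-fold after cisplatin and saline and 2.74-fold after cisplatin and AIBP in ABC-imKO. Ltc4s fell after cisplatin and saline in WT and after cisplatin and AIBP in ABC-imKO, with the 4 treated groups all below every naive sample. Ptgs1 and Hpgds were abundant throughout, and Ptgs2 and Ptges were near the lower end of detection.

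Cyp4f18 and Alox5 are the pair of members whose levels moved together most closely, so the 250 bases that precede their RefSeq start sites are shown (assembly GRCm38.p6, chr8:72009627-72009876 and chr6:116461179-116461428, both on the minus strand, written 5′ to 3′ along the gene). Capitals mark matches to the motifs searched.
Cyp4f18: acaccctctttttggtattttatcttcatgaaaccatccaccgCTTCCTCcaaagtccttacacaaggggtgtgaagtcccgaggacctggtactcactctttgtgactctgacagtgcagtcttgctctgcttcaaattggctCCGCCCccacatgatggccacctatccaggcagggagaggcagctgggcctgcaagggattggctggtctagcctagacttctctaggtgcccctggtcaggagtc
Alox5: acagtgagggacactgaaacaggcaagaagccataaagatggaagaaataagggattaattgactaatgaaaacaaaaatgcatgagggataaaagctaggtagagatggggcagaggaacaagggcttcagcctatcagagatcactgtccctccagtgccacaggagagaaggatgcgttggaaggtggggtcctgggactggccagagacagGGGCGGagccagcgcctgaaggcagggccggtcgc
The search covered 9 short motifs on both strands of the window from 250 bases before to 50 bases after each start site: a GC box (GGGCGG), the PU.1 core (GAGGAAG), AP-1 (TGANTCA), C/EBP (TTGCNNAA), a TATA box (TATAAA), NF-kB (GGGNNTTCC), CRE (TGACGTCA), an E-box (CACGTG) and a nuclear receptor element (AGGTCA). In the Cyp4f18 stretch the PU.1 core is read on the opposite strand with its first base 207 bases before the start site, and a GC box on the opposite strand begins 106 bases before it. In the Alox5 stretch a GC box begins 35 bases before the start site. The GC box occurs in 35.7% and the PU.1 core in 13.6% of the 32851 windows of this length in the table, AP-1 in 7.81%, C/EBP in 10.8%, the TATA box in 13.6%, NF-kB in 5.82%, CRE in 1.79%, the E-box in 7.15% and the nuclear receptor element in 16.3%. A match is a run of letters, not a binding site, and the other 7 motifs have no match in these stretches. RefSeq windows were matched for 9 of the 10 members.

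The summed counts ranged from 45.1 to 76.6 M reads per sample (median 63.1 M), each sample being the sum of 3 technical libraries sequenced on 2 lanes. Levels are counts per 1000000 counts (CPM) after TMM scaling. All 10 microglial markers listed were present in every sample, Tmem119 at 1620 CPM or more and P2ry12 at 754 CPM or more. The sum of the 10 ran from 51427 to 59048 CPM in WT naive and from 29268 to 37120 CPM in WT cisplatin saline. It was 40519 to 52400 in ABC-imKO naive and 20294 to 23932 in ABC-imKO cisplatin saline. The sums hide single markers. Cx3cr1 was 9349 to 10656 CPM in WT naive and 3397 to 4871 CPM in ABC-imKO naive. From naive to cisplatin saline, Fcrls and Olfml3 did not fall in WT, where the rest did, and both were lower in ABC-imKO. Counts of Abca1 (32.6 to 114 CPM) and Abcg1 (25.6 to 160 CPM) over the whole gene do not measure the deletion, since the deleted exons are not identified in the labels. WT cisplatin saline samples 5 and 6 stood apart from sample 4 in monocyte and border macrophage transcripts: the monocyte gene Ccr2 was 95.3 and 62.8 CPM against 0.324, and F13a1 was 80.8 and 49.2 CPM against 0.152. The 8 listed monocyte markers summed to 216 and 168 CPM in samples 5 and 6, 12.95 in sample 4, 6.31 to 23.5 in WT naive, 32.3 to 33.4 in WT cisplatin AIBP, 20.9 to 30.1 in ABC-imKO naive, 117 to 192 in ABC-imKO cisplatin saline and 36.95 to 166 in ABC-imKO cisplatin AIBP. The ABC-imKO cisplatin saline sums were mostly Chil3, and Ccr2 was at most 6.74 CPM in any ABC-imKO sample. The defining neutrophil genes S100a9, Ly6g and Retnlg were at 0 in all 17 samples and S100a8 was at most 5.98 CPM. Of the other listed markers, Mmp8 was 12.7 and 8.89 CPM and Mmp9 7.75 and 3.78 CPM in WT cisplatin saline samples 5 and 6. In WT naive both were at most 0.0178 CPM. Mmp8 was also 3.42 CPM in ABC-imKO cisplatin AIBP sample 8 and 2.44 CPM in WT cisplatin AIBP sample 9. The sum of the 10 neutrophil markers was 255 to 803 CPM, of which Csf3r made up at least 249 CPM in every sample. The 8 mast cell markers summed to at most 0.914 CPM. In these sorted pools a smaller number of cells of a type and less RNA per cell cannot be told apart.

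**Figure D1:**
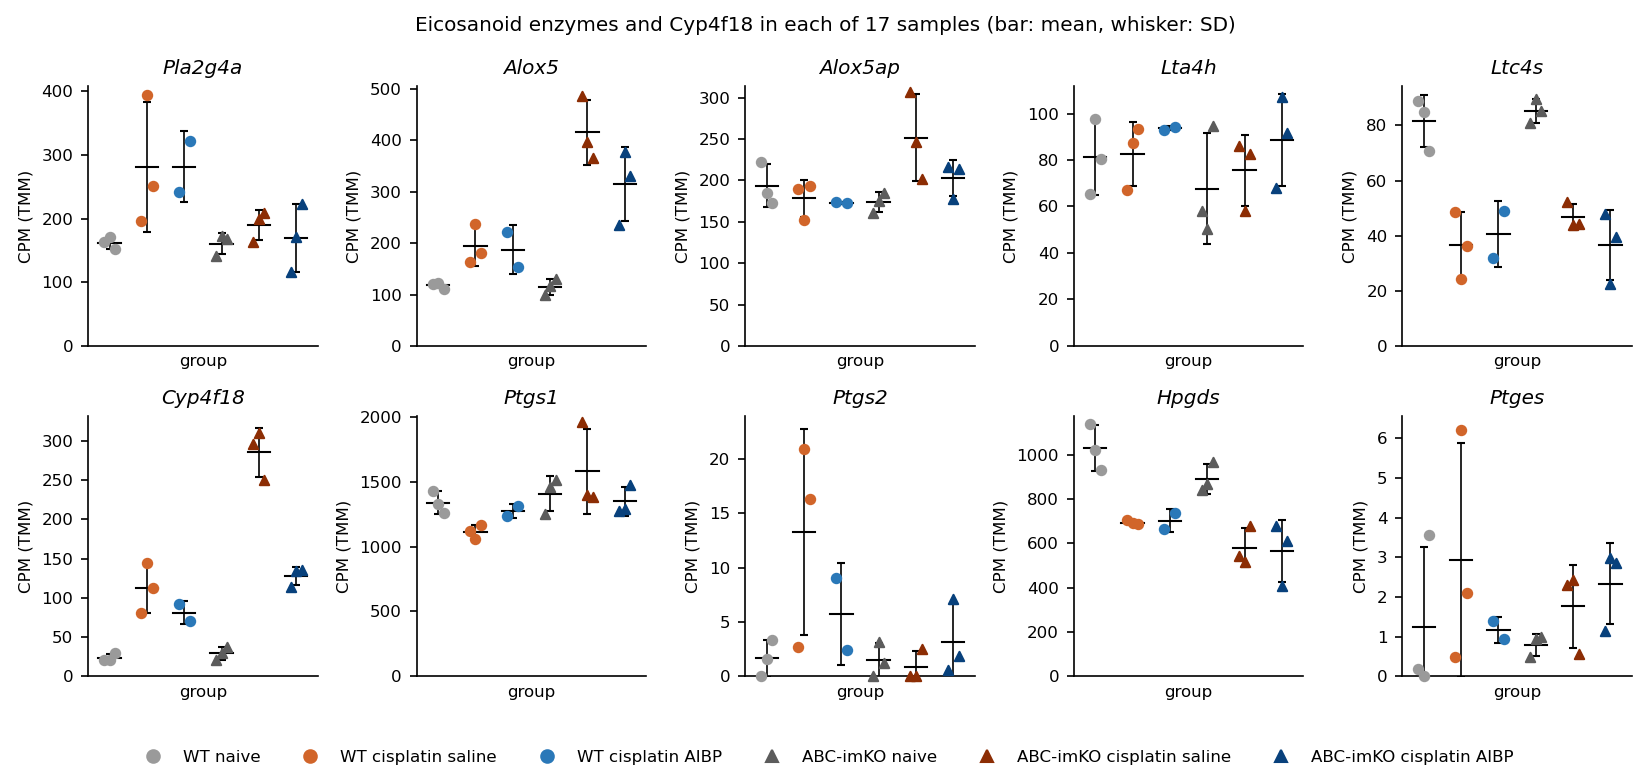
Level of each of the 10 genes in each of the 17 samples, in CPM after TMM scaling (y axis, each panel from 0), by group along the x axis; circles are WT and triangles ABC-imKO, the bar is the group mean and the whisker its SD, drawn down to 0 where it would pass below. The 3 ABC-imKO cisplatin saline samples lie between 251 and 309.9 CPM for Cyp4f18, above every other sample.

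Cyp4f18 (ENSMUSG00000003484, chr8:71988482-72009626, minus strand, GRCm38) was low in naive mice: WT samples 1, 2 and 3 held 20.6, 20.1 and 29.5 CPM, and ABC-imKO samples 1, 2 and 3 held 21.3, 29.2 and 37.9 CPM. After cisplatin and saline the WT samples 4, 5 and 6 held 81.2, 144 and 113 CPM, and the ABC-imKO samples 4, 5 and 6 held 296, 309.9 and 251 CPM. After cisplatin and AIBP the WT samples 7 and 9 held 91.5 and 70.6 CPM, and the ABC-imKO samples 7, 8 and 9 held 114, 134 and 136 CPM. Every cisplatin sample was above every naive sample, and the lowest ABC-imKO cisplatin saline sample was above the highest sample of any other group. In the order of group means, from 286 CPM in ABC-imKO cisplatin saline down through 128, 113, 81.0 and 29.5 to 23.4 CPM in WT naive, neighbours overlapped except at the step below ABC-imKO cisplatin saline and at the step between WT cisplatin AIBP and ABC-imKO naive.

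The fitted log2 fold change of Cyp4f18 between cisplatin saline and naive was 2.27 ± 0.26 (SE) in WT (edgeR quasi-likelihood test, Benjamini-Hochberg adjusted p = 0.000755) and 3.28 ± 0.27 in ABC-imKO (adjusted p = 8.85e-05). Between cisplatin AIBP and naive it was 1.79 ± 0.27 in WT (adjusted p = 0.00922) and 2.12 ± 0.25 in ABC-imKO (adjusted p = 0.00114). The call in WT cisplatin saline was lost when samples 5 and 6, those of the group with high monocyte sums, were left out together (log2 fold change 1.85 ± 0.30, adjusted p = 0.062, with sample 4 alone assumed to vary like the other groups). Sample 4, where the monocyte markers summed to 12.95 CPM and the 9 border macrophage markers to 7.77 CPM (at most 5.05 CPM in WT naive), held 81.2 CPM of Cyp4f18 against at most 29.5 CPM in WT naive. In ABC-imKO cisplatin saline samples 4, 5 and 6 the monocyte markers summed to 159, 192 and 117 CPM, against at most 30.1 CPM in ABC-imKO naive. Most of each sum was Chil3 (116, 106 and 76.9 CPM), while Ccr2 was 0.227, 4.88 and 6.74 CPM. The border macrophage markers there summed to 45.9, 30.8 and 27.8 CPM, against at most 9.96 CPM in ABC-imKO naive. The largest part of each was F13a1 (23.1, 13.6 and 13.2 CPM), followed by Cbr2 and Siglec1. Pf4 was at most 1.52 CPM and Ms4a7 at most 0.0627 CPM in those samples. The part of these transcripts in the Cyp4f18 levels was not tested. The call in WT cisplatin AIBP was lost without sample 7 (log2 fold change 1.61 ± 0.33, adjusted p = 0.113).

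Cyp4f18 was 2.23-fold lower in ABC-imKO cisplatin AIBP than in ABC-imKO cisplatin saline, with no overlap of the samples, but the adjusted p was 0.454 in edgeR's test (log2 fold change -1.16 ± 0.25), 0.0323 with limma-voom and 0.00157 with DESeq2. In WT the same comparison gave -0.48 ± 0.28 (adjusted p = 0.996), with overlapping samples, and the difference between genotypes in the AIBP response was -0.68 ± 0.36 (adjusted p = 0.829). Between genotypes after cisplatin and saline, Cyp4f18 was 2.53-fold higher in ABC-imKO (log2 fold change 1.34 ± 0.25, adjusted p = 0.103), again without overlap, and here the adjusted p was 0.0118 with limma-voom and 7.29e-05 with DESeq2. The difference between genotypes in the cisplatin response was 1.01 ± 0.35 (adjusted p = 0.607). In naive mice the genotypes overlapped and the difference was 0.33 ± 0.25 (adjusted p = 0.878).

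The coding gene Zfp961 overlaps Cyp4f18 on the opposite strand, and the library protocol described does not mark strand, so reads in the shared stretch cannot be told apart. Zfp961 was counted at 10.5 to 43.9 CPM over the 17 samples, and its ranges in ABC-imKO naive (10.5 to 21.8 CPM) and ABC-imKO cisplatin saline (13.6 to 43.9 CPM) overlapped. Other Cyp4f genes, whose sequences resemble Cyp4f18, were counted separately: Cyp4f13 averaged 139 CPM and Cyp4f16 averaged 18.7 CPM over all samples, and neither passed the test in any comparison. The technical libraries of a sample differed more for Cyp4f18 than the samples of a group did, each sample being the sum of its libraries. Since a sum of 3 libraries varies less than a single library, this direction is partly built in and is not read as a result. It was shared by Alox5, Alox5ap, Lta4h, Ptgs1, Ptgs2, Hpgds and Pla2g4a, and not by Ltc4s and Ptges. For Cyp4f18 the SD of log2(CPM + 1) was 0.74 between libraries of a sample and 0.30 between samples of a group, and the 9 libraries of WT naive ranged from 2.85 to 57.4 CPM. The lowest of the 9 ABC-imKO cisplatin saline libraries, at 175 CPM, was nevertheless above the highest of the 9 ABC-imKO naive libraries, at 62.7 CPM.

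**Figure D2:**
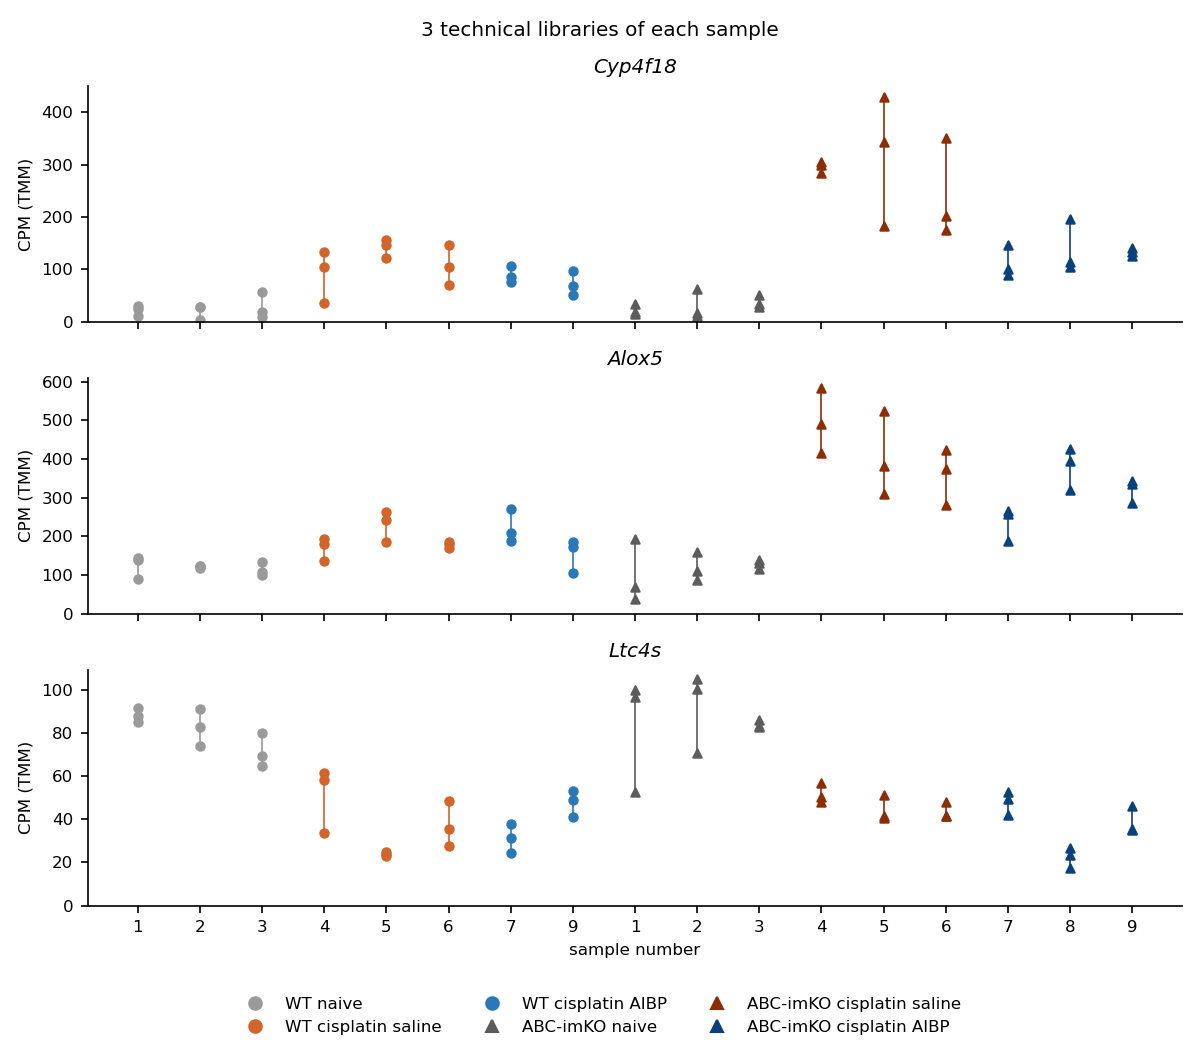
Cyp4f18, Alox5 and Ltc4s in the 3 technical libraries of each of the 17 samples (CPM after TMM scaling on the y axis, sample number within genotype and group on the x axis; a line joins the lowest and highest library). Libraries of 1 sample can lie far apart, as in ABC-imKO cisplatin saline sample 5, where Cyp4f18 runs from 183 to 429 CPM.

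Alox5 (ENSMUSG00000025701, chr6:116410077-116461178, minus strand), the enzyme that commits arachidonic acid to leukotrienes, was even across naive samples, at 121, 123 and 111 CPM in WT and 98.7, 116 and 129.8 CPM in ABC-imKO. After cisplatin and saline it was 164, 237 and 181 CPM in WT samples 4, 5 and 6, and 487, 396 and 365 CPM in ABC-imKO samples 4, 5 and 6. After cisplatin and AIBP it was 221 and 154 CPM in WT samples 7 and 9, and 236, 378 and 330.3 CPM in ABC-imKO samples 7, 8 and 9. All 11 cisplatin samples were above all 6 naive samples, and the 3 ABC-imKO cisplatin saline samples were above the 3 WT ones. WT cisplatin saline 5 and ABC-imKO cisplatin AIBP 8, each the highest of its group, also had the highest monocyte sums of their groups (216 and 166 CPM). This did not hold for ABC-imKO cisplatin saline 4 and WT cisplatin AIBP 7, the highest of theirs. The part of the monocyte transcripts in the Alox5 levels was not tested. In ABC-imKO the log2 fold change against naive was 1.86 ± 0.21 after saline (adjusted p = 0.000515) and 1.45 ± 0.21 after AIBP (adjusted p = 0.00297). In WT it was 0.71 ± 0.21 after saline (adjusted p = 0.0857) and 0.67 ± 0.23 after AIBP (adjusted p = 0.197), which did not pass. After cisplatin and saline the genotypes differed by 1.10 ± 0.21 (adjusted p = 0.126), and the test of the difference between their responses gave 1.14 ± 0.29 (adjusted p = 0.543). Saline and AIBP groups overlapped in both genotypes, with -0.40 ± 0.21 in ABC-imKO (adjusted p = 0.706) and -0.05 ± 0.23 in WT (adjusted p = 1).

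Alox5ap (ENSMUSG00000060063, chr5:149264767-149288153, plus strand), the partner of Alox5, did not pass in any comparison in edgeR's test. It lay between 153 and 223 CPM in every sample outside ABC-imKO cisplatin saline, where samples 4, 5 and 6 held 307, 247 and 202 CPM. The 3 were above the ABC-imKO naive samples (161, 175 and 185 CPM), with a log2 fold change of 0.54 ± 0.17 and an adjusted p of 0.0975. In WT the samples after cisplatin and saline overlapped those of naive (-0.12 ± 0.17, adjusted p = 0.771).

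Lta4h (ENSMUSG00000015889, chr10:93453411-93484875, plus strand), which makes leukotriene B4, ranged from 50.3 to 107 CPM, and its samples overlapped between all neighbouring groups in the order of their means. The largest of its 4 fold changes against naive, in ABC-imKO cisplatin AIBP, was 0.39 ± 0.26 on the log2 scale (adjusted p = 0.471). Its branch partner Ltc4s (ENSMUSG00000020377, chr11:50236461-50238616, minus strand), the source of leukotriene C4, was below naive in all 4 cisplatin groups. Naive samples held 88.7, 84.9 and 70.8 CPM of Ltc4s in WT and 80.7, 89.6 and 85.3 CPM in ABC-imKO. After cisplatin and saline it was 48.7, 24.3 and 36.4 CPM in WT samples 4, 5 and 6 and 52.1, 43.9 and 44.2 CPM in ABC-imKO samples 4, 5 and 6. After cisplatin and AIBP it was 32.05 and 49.002 CPM in WT samples 7 and 9, and 47.9, 22.6 and 39.4 CPM in ABC-imKO samples 7, 8 and 9. The highest cisplatin sample was thus below the lowest naive sample, and the 4 cisplatin groups overlapped each other.

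Against naive, Ltc4s fell by 1.16 ± 0.28 on the log2 scale after cisplatin and saline in WT (adjusted p = 0.0417) and by 1.22 ± 0.28 after cisplatin and AIBP in ABC-imKO (adjusted p = 0.0358). After saline in ABC-imKO the change was -0.87 ± 0.28 (adjusted p = 0.109), and after AIBP in WT it was -1.01 ± 0.32 (adjusted p = 0.163). These calls were near the threshold. The WT call was lost on leaving out WT naive sample 1, 2 or 3 (adjusted p = 0.136, 0.115 and 0.0682) or WT cisplatin saline sample 5 or 6 (0.194 and 0.129), and without samples 5 and 6 together the change was -0.69 ± 0.37 (adjusted p = 0.815). The ABC-imKO call was lost on leaving out ABC-imKO naive sample 1, 2 or 3 (adjusted p = 0.0823, 0.122 and 0.0702) or ABC-imKO cisplatin AIBP sample 8 or 9 (0.15 and 0.0896). Sample 8 of that group also held the highest border macrophage sum of its group, 76.8 CPM against 5.35 and 8.35 CPM, and the part of those transcripts was not tested. The antisense gene Gm26542 overlaps Ltc4s and drew 2390 reads in all against 59163 for Ltc4s.

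**Figure D3:**
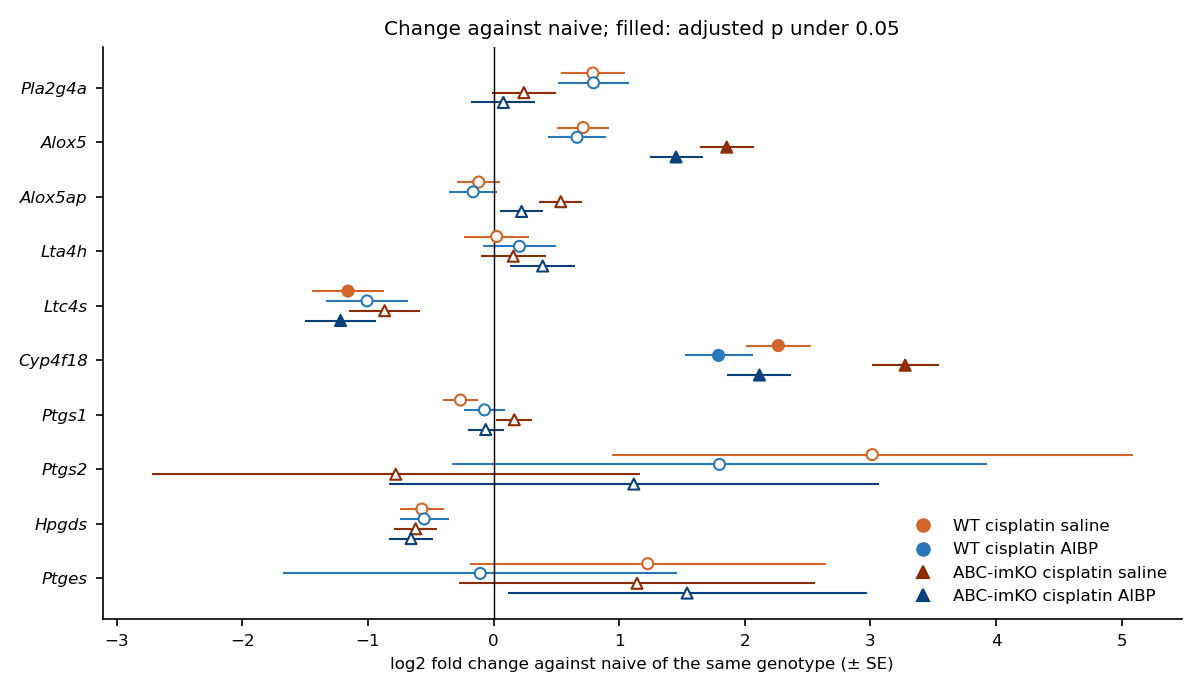
Log2 fold change of the 10 genes against naive of the same genotype (x axis, points with ± 1 SE; genes on the y axis) in the 4 cisplatin groups, with filled symbols where the adjusted p was under 0.05 over all genes tested. Cyp4f18 is filled in all 4 groups, Alox5 in the 2 ABC-imKO groups and Ltc4s in 2 groups; the intervals of Ptgs2 and Ptges are several times wider than the others.

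Pla2g4a (ENSMUSG00000056220, chr1:149829618-149961290, minus strand) was 152 to 171 CPM in WT naive and 141 to 173 CPM in ABC-imKO naive. WT cisplatin saline samples 4, 5 and 6 held 196, 394 and 252 CPM and WT cisplatin AIBP samples 7 and 9 held 242 and 321 CPM, all above WT naive. ABC-imKO samples after cisplatin ranged from 116 to 223 CPM and overlapped naive. No comparison passed: the log2 fold changes against naive were 0.79 ± 0.26 (adjusted p = 0.127) and 0.80 ± 0.28 (adjusted p = 0.21) in WT after saline and AIBP, and 0.24 ± 0.25 (adjusted p = 0.673) and 0.08 ± 0.25 (adjusted p = 0.933) in ABC-imKO. The highest sample, WT cisplatin saline 5, was also the one with the most Ccr2, and the part of the monocyte transcripts was not tested.

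Per kilobase of exon, Ptgs1 (ENSMUSG00000047250, chr2:36230426-36252272, plus strand) was the most abundant member, with a mean of 347 CPM per kb over the 17 samples, followed by Alox5ap at 139, Hpgds at 116, Cyp4f18 at 60.2, Alox5 at 55.1, Ltc4s at 54.6, Pla2g4a at 31.8, Lta4h at 13.3, Ptgs2 at 0.934 and Ptges at 0.442. Cyclooxygenase transcripts in these microglia were thus mainly those of Ptgs1. Ptgs1 ranged from 1061 to 1961 CPM and did not pass in any comparison. It went from 1338 ± 89 CPM (SD, n = 3) in WT naive to 1116 ± 53 (n = 3) in WT cisplatin saline and from 1409 ± 137 (n = 3) in ABC-imKO naive to 1580.1 ± 329.6 (n = 3) in ABC-imKO cisplatin saline. The saline groups of the genotypes did not overlap, at 0.50 ± 0.14 on the log2 scale (adjusted p = 0.332).

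Ptgs2 (ENSMUSG00000032487, chr1:150100031-150108227, plus strand) was at 2.67, 20.9 and 16.3 CPM in WT cisplatin saline samples 4, 5 and 6, at 9.06 and 2.39 CPM in WT cisplatin AIBP samples 7 and 9 and at most 7.09 CPM in every other sample, among them 3 samples with no read. The 2 highest samples were WT cisplatin saline 5 and 6, whose monocyte markers summed to 216 and 168 CPM, with Ccr2 at 95.3 and 62.8 CPM. The ABC-imKO cisplatin saline samples held at most 2.52 CPM of Ptgs2. Their monocyte sums of 117 to 192 CPM were mostly Chil3, with Ccr2 at 0.227 to 6.74 CPM. The part of these transcripts was not tested. The log2 fold change in WT cisplatin saline against naive was 3.01 ± 2.07 (adjusted p = 0.462). Ptges (ENSMUSG00000050737, chr2:30889471-30929863, minus strand) did not exceed 6.21 CPM, and its SE against naive was 1.42 to 1.57. Changes of these 2 genes were not detectable with this spread.

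Hpgds (ENSMUSG00000029919, chr6:65117293-65144908, minus strand), the prostaglandin D2 synthase of macrophages and microglia, held 1138, 1021 and 932 CPM in WT naive and 840.0, 869 and 967 CPM in ABC-imKO naive. After cisplatin and saline it was 705, 690.4 and 687 CPM in WT samples 4, 5 and 6 and 543, 517 and 681 CPM in ABC-imKO samples 4, 5 and 6. After cisplatin and AIBP it was 666 and 739 CPM in WT samples 7 and 9 and 679, 407 and 611 CPM in ABC-imKO samples 7, 8 and 9. Every cisplatin sample was below every naive sample. The 4 log2 fold changes against naive were -0.57 ± 0.17 and -0.55 ± 0.20 in WT after saline and AIBP and -0.62 ± 0.17 and -0.66 ± 0.17 in ABC-imKO, and none passed in edgeR's test (adjusted p = 0.0986, 0.211, 0.0577 and 0.0593).

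Counted over the 10 members, 2 passed in WT cisplatin saline against naive (Cyp4f18 higher, Ltc4s lower), where 2.91% of all 20461 genes passed, and 2 passed in ABC-imKO (Cyp4f18 and Alox5, both higher), where 4.41% passed. In cisplatin AIBP against naive, 1 member passed in WT (Cyp4f18), against 1.25% of all genes, and 3 passed in ABC-imKO (Cyp4f18, Alox5 and Ltc4s), against 2.68%. The median log2 fold change of the 10 members after cisplatin and saline was 0.37 in WT, beside -0.01 over all genes tested, and 0.20 in ABC-imKO, beside -0.04. By plain separation of the samples, 6 members had no overlap with naive in WT cisplatin saline (22.8% of all genes), 5 in ABC-imKO cisplatin saline (23.5%), 5 in WT cisplatin AIBP, where only 2 samples have to lie apart (33.3%), and 5 in ABC-imKO cisplatin AIBP (19.9%). Comparisons with the same naive samples are not independent of each other.

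AIBP in place of saline after cisplatin gave no passing member in edgeR's test in WT, where 0% of all genes passed, or in ABC-imKO, where 0.00977% did. At an unadjusted p under 0.05 there were 0 members in WT, beside 759 of all 20461 genes. In ABC-imKO there was 1 (Cyp4f18), beside 1354 of 20461. DESeq2 and limma-voom each called 0 members in WT and 1, again Cyp4f18, in ABC-imKO. The shares of all genes that these tools called are not given here. Samples did not overlap for 1 member in WT (Ptgs1, 18.2% of all genes) and 1 in ABC-imKO (Cyp4f18, 8.6%).

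Genotype gave no passing member in edgeR's test in naive mice (0.00489% of all genes), after cisplatin and saline (0.044%) or after cisplatin and AIBP (0%). The members with an unadjusted p under 0.05 numbered 0, 5 and 3 in these comparisons, beside 1220, 1837 and 1299 of all 20461 genes. Members called by DESeq2 numbered 0, 2 and 0, as they did with limma-voom. The 2 were Alox5 and Cyp4f18 after cisplatin and saline. For these comparisons the shares of all genes that DESeq2 and limma-voom called are not given here. Samples of the genotypes did not overlap for 0 members in naive mice (9.63% of all genes), for 6 after cisplatin and saline (12.5%; Alox5, Alox5ap, Cyp4f18 and Ptgs1 higher in ABC-imKO, Ptgs2 and Hpgds lower) and for 4 after cisplatin and AIBP (22.2%; Alox5, Alox5ap and Cyp4f18 higher, Pla2g4a lower). The test of the difference between genotypes in the cisplatin response passed for 0% of all genes, and so did that in the AIBP response. For the cisplatin response 3 members had an unadjusted p under 0.05, beside 1561 of all 20461 genes, and DESeq2 called 1 (Alox5). For the AIBP response both counts were 0, beside 1285 genes at an unadjusted p under 0.05. In either response limma-voom called 0. The shares of all genes that the other tools called in these tests are not given here either.

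Across the 17 samples the closest pair of members was Cyp4f18 and Alox5, with a Pearson r of 0.94 between log2 CPM values. It was 0.91 over the 8 WT and 0.97 over the 9 ABC-imKO samples, and 0.65 between deviations from the group means. Ltc4s and Hpgds had r = 0.80 over all samples and 0.64 between deviations, and Cyp4f18 ran opposite to Hpgds (r = -0.84) and to Ltc4s (r = -0.74). Alox5 and its partner Alox5ap had r = 0.58. These are descriptions over samples that fall in 6 groups, and values of a sample share its libraries and depth.

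**Figure D4:**
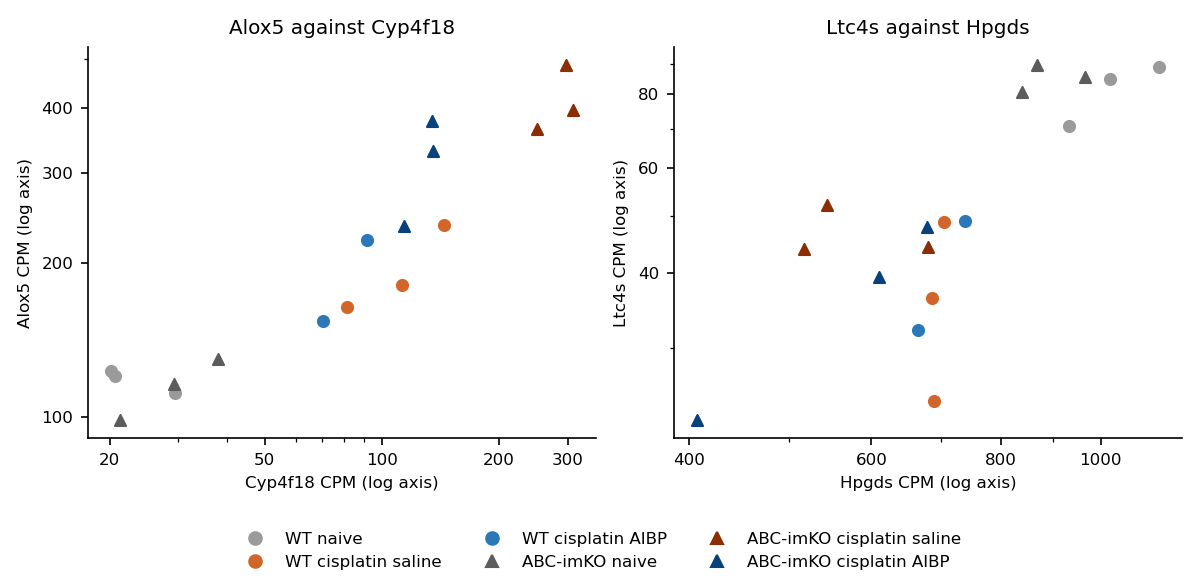
Alox5 against Cyp4f18 and Ltc4s against Hpgds in the 17 samples, in CPM after TMM scaling on log axes; circles are WT and triangles ABC-imKO, coloured by group. Naive samples lie at the lower left for Alox5 and Cyp4f18 and at the upper right for Ltc4s and Hpgds, apart from the cisplatin samples in both panels.

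Among 8213 named genes of at least 10 CPM on average, the 5 whose log2 CPM followed Cyp4f18 most closely over the 17 samples were Rpl35a (r = 0.97), Ms4a6c (0.97), Lrg1 (0.97), Ndufa4 (0.96) and Serp1 (0.96). Lrg1 averaged 69.1 CPM in ABC-imKO cisplatin saline and at most 7.87 CPM in any other group. It reached 10 CPM on average only through that group, where Cyp4f18 was also highest, so its r is not read as a result. Ms4a6c averaged 21.1 CPM in naive WT mice and 102 CPM after their cisplatin and saline, 30.2 in ABC-imKO naive and 320.1 in ABC-imKO cisplatin saline. For Alox5 they were Serp1 (r = 0.97), Rpl35a (0.96), Psma2 (0.94), Rps25 (0.94) and Slc7a5 (0.94). For Ltc4s they were Rnase4 (r = 0.96), Cd300c2 (0.96), P2rx7 (0.95), Ang (0.94) and Mef2a (0.94), and Rnase4 averaged 1114 CPM in naive WT mice against 577 CPM after cisplatin and saline. Rpl35a and Serp1 thus stand in the lists of both Cyp4f18 and Alox5.

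Beside the members, 68 other genes of eicosanoid metabolism were listed from general knowledge, of which 47 passed the filter on low counts. Of these 47, 2 fell in WT cisplatin saline against naive, where 2.91% of all genes tested passed in either direction. In ABC-imKO cisplatin saline 1 rose and 4 fell (4.41% of all genes passed), and in ABC-imKO cisplatin AIBP 1 rose and 3 fell (2.68%). In WT cisplatin AIBP 0 passed in edgeR's test, against 1.25% of all genes. At an unadjusted p under 0.05 there were 12 of the 47, beside 2933 of all 20461 genes. DESeq2 called 7 and limma-voom 1, and the shares of all genes they called are not given here. The median log2 fold changes of the 47 were 0 in WT cisplatin saline and -0.24 in ABC-imKO cisplatin saline, beside -0.01 and -0.04 over all genes tested. The 5 genes called were Hpgd, Pla2g15, Ggt5, Ptges3 and Abhd12.

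Hpgd, the dehydrogenase that inactivates prostaglandins (chr8:56294585-56321043, plus strand), held 601, 579 and 541 CPM in WT naive and 448, 464 and 543 CPM in ABC-imKO naive. It was 339, 161 and 261 CPM in WT cisplatin saline samples 4, 5 and 6 and 142, 126 and 142 CPM in those of ABC-imKO. After AIBP it was 278 and 304 CPM in WT samples 7 and 9 and 210.0, 110.1 and 202 CPM in ABC-imKO samples 7, 8 and 9. Every cisplatin sample was below every naive sample. In ABC-imKO it fell by 1.83 ± 0.26 on the log2 scale after saline (adjusted p = 0.00142) and by 1.48 ± 0.26 after AIBP (adjusted p = 0.00732), and in WT by 1.18 ± 0.25 after saline (adjusted p = 0.0228). The WT call was lost on leaving out WT naive sample 1, 2 or 3 (adjusted p = 0.0797, 0.0675 and 0.0501), WT cisplatin saline sample 5 or 6 (0.0986 and 0.0766), or samples 5 and 6 together (-0.71 ± 0.30, adjusted p = 0.702).

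Pla2g15, a lysosomal phospholipase A2, was 470.1 to 575 CPM in WT naive and 567 to 623 CPM in ABC-imKO naive, and 166 to 205 CPM in ABC-imKO cisplatin saline. It fell there by 1.72 ± 0.18 on the log2 scale (adjusted p = 0.000316). In ABC-imKO cisplatin AIBP it was 257 to 324 CPM, above all 3 saline samples of that genotype, and had fallen from naive by 1.07 ± 0.18 (adjusted p = 0.00627); the difference between AIBP and saline was 0.66 ± 0.18 (adjusted p = 0.706). In WT cisplatin saline it fell by 0.83 ± 0.18 (adjusted p = 0.0221), a call lost without WT naive sample 1 or 3 (adjusted p = 0.0668 and 0.0794), without WT cisplatin saline sample 5 or 6 (0.116 and 0.105) and without samples 5 and 6 together (-0.41 ± 0.22, adjusted p = 0.816).

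The other 3 calls were smaller or less even. Ptges3, the cytosolic prostaglandin E synthase that also acts as the Hsp90 partner p23, rose in ABC-imKO by 0.95 ± 0.24 after saline (adjusted p = 0.0364) and 1.05 ± 0.24 after AIBP (adjusted p = 0.0323). Ggt5, which turns leukotriene C4 into leukotriene D4, fell in ABC-imKO by 1.38 ± 0.34 after saline (adjusted p = 0.0331) and by 1.36 ± 0.34 after AIBP (adjusted p = 0.0493). Abhd12, a serine hydrolase, fell by 0.49 ± 0.12 after saline in ABC-imKO (adjusted p = 0.0273). Each of these 5 calls was lost on leaving out single samples. For Ptges3 after saline these were ABC-imKO naive 1 or 2 and cisplatin saline 5 or 6 (adjusted p = 0.118, 0.15, 0.125 and 0.118), and after AIBP naive 1 or 2 and cisplatin AIBP 8 or 9 (0.113, 0.144, 0.0916 and 0.115). For Ggt5 after saline they were naive 1 or 2 and cisplatin saline 4, 5 or 6 (0.0963, 0.125, 0.117, 0.0553 and 0.109), and after AIBP naive 1 or 2 and cisplatin AIBP 8 or 9 (0.142, 0.171, 0.225 and 0.174). For Abhd12 they were naive 2 or 3 and cisplatin saline 4 or 5 (0.108, 0.0801, 0.0814 and 0.123).

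**Figure D5:**
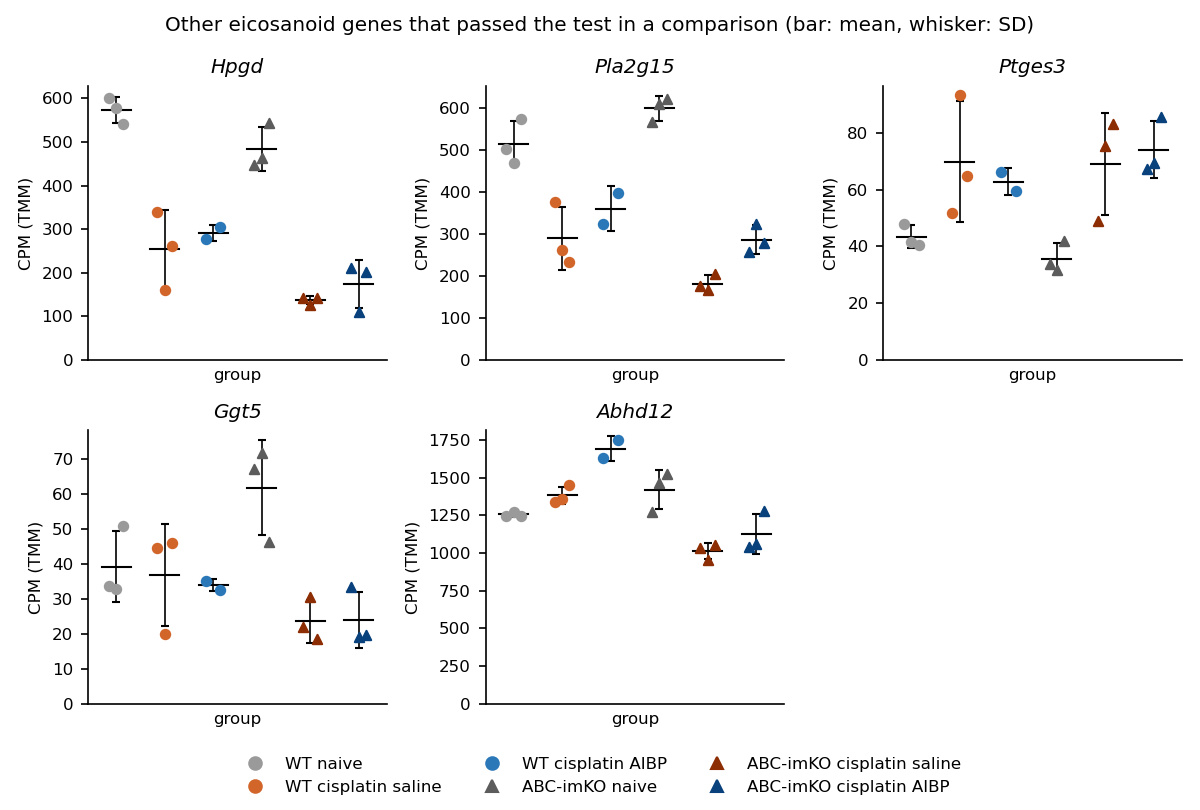
The 5 other eicosanoid genes that passed in a comparison, in CPM after TMM scaling (y axis, each panel from 0) by group (x axis); points are samples, the bar is the group mean and the whisker its SD. Hpgd and Pla2g15 lie below every naive sample in all cisplatin samples of both genotypes.

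The 8 other genes with the highest mean CPM are given here per kilobase of exon, as means over all 17 samples: Abhd12 at 458 CPM per kb, Hpgd at 191, Pla2g15 at 124, the thromboxane synthase Tbxas1 at 60.2, Daglb, which makes the arachidonate donor 2-arachidonoylglycerol, at 56.3, Abhd6 at 42.9, the cysteinyl leukotriene receptor Cysltr1 at 31.3 and Cyp4f13 at 31.2. Tbxas1, Daglb, Cysltr1, Cyp4f13 and Abhd6 did not pass in any comparison in edgeR's test. Cysltr1 was 206 ± 23 CPM (SD, n = 3) in WT naive and 149 ± 15 (n = 3) in WT cisplatin saline (log2 fold change -0.47 ± 0.17, adjusted p = 0.185), and 174 ± 13 (n = 3) in ABC-imKO naive and 130.2 ± 14 (n = 3) in ABC-imKO cisplatin saline (-0.42 ± 0.17, adjusted p = 0.216). Of the receptors of leukotriene B4, Ltb4r1 reached 12.1 and 4.74 CPM in WT cisplatin saline samples 5 and 6 and was at most 3.31 CPM in the other 15 samples. The other, Ltb4r2, averaged at most 1.28 CPM in a group. Among the prostaglandin E2 receptors, Ptger4 was 0.910 to 4.95 CPM in WT naive and 15.6 to 30.3 CPM in WT cisplatin saline without overlap (log2 fold change 2.80 ± 1.09, adjusted p = 0.208). In ABC-imKO the groups overlapped, with Ptger4 at 1.27, 0.768 and 24.5 CPM in naive samples 1, 2 and 3 and 26.3, 10.8 and 11.4 CPM in cisplatin saline samples 4, 5 and 6 (0.87 ± 1.02, adjusted p = 0.716). The other receptors of this ligand, Ptger1, Ptger2 and Ptger3, averaged at most 3.12 CPM in any group.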

How the data were processed

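Raw counts per gene and signal values (the same counts divided by size factors, in a normalized table) were deposited by the authors for 102 sequencing runs. Alignment used STAR 2.6.0a and the build GRCm38, per the submitters' processing notes; the counting tool and its strand setting are not given in the sources used here. From the deposited counts, the 6 runs (3 technical libraries on 2 lanes) of each numbered sample were summed to 17 samples of 45.1 to 76.6 M counts; the normalized signal was used for the symbols of the members. Genes were named with GENCODE M21.

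All genes that passed filterByExpr (20461) were fitted in one model of 6 group means with edgeR 4.0.16 (R 4.3.3; TMM, glmQLFit, glmQLFTest, two-sided), with Benjamini-Hochberg adjustment over all genes within each of 11 comparisons and a threshold of 0.05. SE is the size of the log2 fold change divided by the square root of F. Fits were tested on simulated data. Alternatives used DESeq2 1.42.0 and limma 3.58.1, other filters and scaling, and fewer samples or libraries.

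The members, the other eicosanoid genes and the marker lists were chosen with earlier results of these data known. Named genes were all members, the other eicosanoid genes called in a comparison, the 8 of these with the highest mean CPM, the leukotriene B4 and prostaglandin E2 receptors tested, and the 5 genes most correlated with each called member; Cyp4f16, Zfp961, Gm26542 and the markers named were added after their values were seen. Intervals here are SEs and SDs over samples.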

Additional observations from a re-analysis of the deposited data

Results flagged for a closer look

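The 10 genes and the 5 other eicosanoid genes called were compared between genotypes. In 3 of them every WT sample of a treated group lay on one side of the mean of its reference group and every ABC-imKO sample on the other side of its own. For Alox5ap the WT cisplatin saline samples were below the WT naive mean and the ABC-imKO ones above the ABC-imKO naive mean, and the difference between the responses was 0.65 ± 0.24 on the log2 scale (SE, edgeR's test, adjusted p = 0.607). For Abhd12 the directions were the opposite, with a difference of -0.62 ± 0.16 (adjusted p = 0.573). For Ptgs1 the WT cisplatin AIBP samples were above the mean of WT cisplatin saline and the ABC-imKO ones below that of ABC-imKO cisplatin saline, with a difference of -0.42 ± 0.21 (adjusted p = 0.815). None of the 3 differences passed the test. No group had enough samples for a check of single outlying samples.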

How the results depend on the processing

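No fold change that passed turned its direction under an alternative. The calls of Cyp4f18 and Alox5 in ABC-imKO cisplatin saline held in 16 of 16 alternatives, that of Cyp4f18 in ABC-imKO cisplatin AIBP in 16 of 16 and that of Alox5 there in 15 of 16; Ltc4s was called in 7 of 17 in WT cisplatin saline and in 9 of 16 in ABC-imKO cisplatin AIBP. Of the members, 2 were called in WT cisplatin saline against naive; a stricter filter called 4, DESeq2 5, a fit of only the groups compared 1, sums without technical library 1, 2 or 3 each 1, a fit without samples 5 and 6 together 0, and leaving out 1 sample at a time 1 to 3. In ABC-imKO cisplatin saline against naive (2 called) a stricter filter called 4, limma-voom 4, DESeq2 5 and leaving out 1 sample 2 to 4. In WT cisplatin AIBP against naive (1 called) DESeq2 called 2, sums without technical library 3 called 0 and leaving out 1 sample 0 to 1. In ABC-imKO cisplatin AIBP against naive (3 called) only the groups compared gave 1 and leaving out 1 sample 2 to 4. ABC-imKO AIBP against saline went from 0 to 1 with limma-voom and with DESeq2. ABC-imKO against WT after cisplatin saline went from 0 to 2 with no filter, with a stricter filter, with limma-voom and with DESeq2, and the genotype difference in the cisplatin response from 0 to 1 with DESeq2. Leaving out 1 sample gave 0 in the 7 comparisons with 0 called. The count over all genes moved between settings too, over the ranges given below. The share of all genes called under each single setting is not given here. The member counts above are therefore not read as results about the members, and the cause of their shifts was not tested.

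Taking libraries as units with the technical number as a replicate block (limma-voom) called 5 members in WT and 5 in ABC-imKO cisplatin saline against naive, 4 in WT cisplatin AIBP against naive, 1 in ABC-imKO AIBP against saline and 4 in ABC-imKO against WT after cisplatin saline. It takes 51 libraries of 17 samples as units; libraries of 1 sample are not biological replicates, so its p-values may be too small and its added calls are not read as results. Libraries of different samples with the same technical number had correlations of -0.26 to 0.46 (median 0.0013) between their deviations. For samples with the same number in WT and ABC-imKO they were -0.15 to 0.19. These values cannot exclude that a number stands for something shared, and the labels do not say. Libraries of 1 sample had a fitted correlation of 0.067.

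Over all genes, the count called was 595 in WT cisplatin saline against naive (7 to 1970 over the alternatives), 903 in ABC-imKO (366 to 2464), 256 in WT cisplatin AIBP against naive (1 to 1365), 549 in ABC-imKO (61 to 1970), 0 in WT AIBP against saline (0 to 104), 2 in ABC-imKO (0 to 187), 1 between naive genotypes (0 to 166), 9 after cisplatin saline (0 to 405), 0 after cisplatin AIBP (0 to 195), and 0 in the genotype differences of the cisplatin (0 to 185) and AIBP (0 to 132) responses. With relative log expression size factors all 60 group means of the members stayed within 1 SD, and with unscaled library sizes 57 of 60.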
